A study of Mus musculus with 4 samples.

Results

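The genes examined were 10 transcription factors of the developing heart, Gata4, Gata6, Nkx2-5, Tbx5, Tbx20, Hand1, Hand2, Isl1, Srf and Myocd. They were chosen by name among the 21878 genes of the mRNA table, and all 10 were listed there. Their 32 transcripts, out of 75959 in the table, were summed per gene, and the 4 transcripts of Gata4 were also followed singly. C3H10T1/2 cells are a mesenchymal line from mouse, and the drug 5-AZA (5-azacytidine) stands in for cytidine and lowers DNA methylation. The study asked how coding and noncoding RNAs change when these cells take a muscle or heart muscle course after 5-AZA. Total RNA freed of ribosomal RNA was sequenced for 2 untreated samples, named replicates 1 and 2, and for 2 samples after 5-AZA, named replicates 101 and 102. The 5-AZA group had 20 μmol/L for 72 hours and then 21 days in fresh medium. The time in culture of the untreated cells is not stated. The study calls the 2 samples of a group biological repeats, without saying that they were separate cultures, so p-values here measure only the spread between these samples, which may be technical. Levels are FPKM, fragments scaled to transcript length and to the fragments sequenced, and since this unit keeps no counts the depth of any one value is unknown. Between 10298 and 11124 genes reached 1 FPKM, the lowest number in untreated replicate 2 and the highest in 5-AZA replicate 102.

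These factors switch on the genes of heart muscle by binding DNA together. GATA4 and GATA6 are zinc finger proteins, NKX2-5 is a homeodomain protein, and TBX5 and TBX20 carry a T-box, and they share many target promoters. HAND1 and HAND2 are basic helix-loop-helix proteins of the ventricles, and ISL1 marks progenitors of the heart. SRF is found in most cells and binds the CArG box of actin and other contractile genes, while its cofactor MYOCD is made mainly in heart and smooth muscle.

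None of the 10 factors was called different after 5-AZA. Genes with a mean of at least 0.1 FPKM were fitted with limma on log2(FPKM + 0.1), and a call needed an adjusted p under 0.05 and a change over 2-fold. Of the 10 factors 3 could be tested (Srf, Gata4 and Gata6) and 7 lay under that level. Neither a higher nor a lower call was made among the 3, of which 0 had an unadjusted p under 0.05, as 35.5% of all genes tested had. Over all 13199 genes tested, 14.4% were called in either direction, 13.1% higher and 1.32% lower. In 0 of the 3 did the values of the groups separate, whereas the 2 groups did not overlap for 62.2% of all genes tested. The number of genes called, 1898, depended on single libraries, and was 977 without 5-AZA replicate 101 and 803 without 5-AZA replicate 102.

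**Figure D1:**
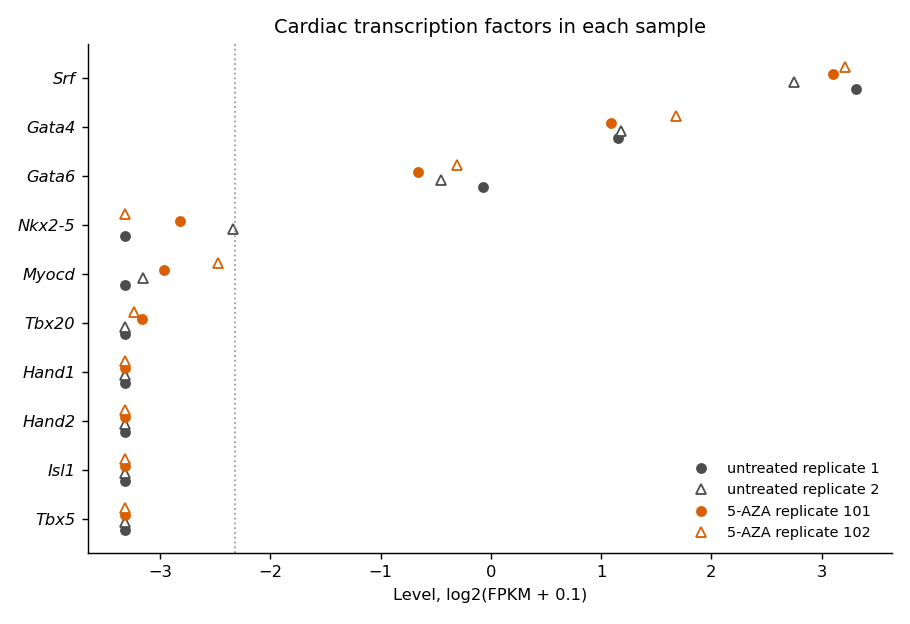
Level of each of the 10 factors in each sample on the log2(FPKM + 0.1) scale, with grey symbols for untreated and orange for 5-AZA samples, and a dotted line at 0.1 FPKM. Srf, Gata4 and Gata6 lie right of the line in all 4 samples with their groups mixed, and the other 7 factors lie left of it.

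Srf, the factor that binds CArG boxes, had the highest level. It stood at 9.82 and 6.62 FPKM in untreated replicates 1 and 2 and at 8.52 and 9.15 FPKM in 5-AZA replicates 101 and 102. Both 5-AZA values lay between the untreated values, so the groups overlapped. The means were 8.22 ± 2.26 FPKM in untreated and 8.83 ± 0.442 FPKM in 5-AZA samples (SD, n = 2 each). The log2 fold change was 0.13 (SE 0.19, limma adjusted p = 0.684), with a 95% interval from -0.30 to 0.56, so a change of up to 1.48-fold upward remained within it. Its sign turned to -0.15 without untreated replicate 2. Among all genes of a sample, Srf ranked between the 71.3 and the 76.6 percentile.

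The 3 Srf transcripts divided this level differently from sample to sample. NM_020493.2 carried 6.35 and 5.76 FPKM in the untreated and 4.50 and 7.69 FPKM in the 5-AZA replicates. XM_011246336.1, a predicted transcript, was at 3.37 FPKM in untreated replicate 1 and at 0.00200 FPKM in untreated replicate 2, and at 3.29 and 1.03 FPKM in the 5-AZA replicates. It was low in 1 untreated sample, the one in which the gene's sum was lowest, and high in the other. Such splits between overlapping transcripts are estimates, and 0 of the 3 transcripts was called, against 2.36% of all transcripts tested, with 0 at an unadjusted p under 0.05 by limma, against 16.0%.

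The promoter of Srf itself holds the motif that its protein binds. It is shown because CArG boxes link Srf with the target genes described further on. The window runs from 250 bases before to 50 bases after the start of transcription given by RefSeq, at chr17:46556113-46556412 on the minus strand (GRCm38.p6), and capitals mark the CArG boxes.
Srf: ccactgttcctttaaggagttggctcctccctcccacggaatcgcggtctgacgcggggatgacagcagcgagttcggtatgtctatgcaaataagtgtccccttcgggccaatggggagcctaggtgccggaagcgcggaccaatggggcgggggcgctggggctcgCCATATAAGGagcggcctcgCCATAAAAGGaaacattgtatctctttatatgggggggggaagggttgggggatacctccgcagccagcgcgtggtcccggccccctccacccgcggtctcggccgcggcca
The boxes began 82 and 62 bases before the start. A CArG box, read here as CC, 6 letters A or T, then GG, has the same class of letters on both strands. It stood in 1.63% of 32851 promoter windows of this length, and 2 or more boxes stood in 6 of them.

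Gata4, a zinc finger factor of early heart cells, was the second most abundant factor. Its sum was 2.13 and 2.17 FPKM in untreated replicates 1 and 2 and 2.02 and 3.09 FPKM in 5-AZA replicates 101 and 102. Replicate 102 lay above both untreated samples and replicate 101 below both, so the groups overlapped. The means were 2.15 ± 0.0271 FPKM in untreated and 2.56 ± 0.759 FPKM in 5-AZA samples (SD, n = 2 each). The log2 fold change of 0.21 (SE 0.24, 95% interval from -0.34 to 0.76) had an adjusted p of 0.584 with limma. Its interval reached from 0.791-fold to 1.69-fold. The direction hung on single libraries, with 0.51 without replicate 101 and -0.084 without replicate 102, and it was -0.11 after quantile normalization.

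Most of the Gata4 sum came from NM_008092.4. This transcript was at 1.43 and 1.80 FPKM in the untreated and at 1.38 and 1.55 FPKM in the 5-AZA replicates, and the groups overlapped. The log2 fold change was -0.13 (SE 0.35, limma adjusted p = 0.902).

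The other curated transcript, NM_001310610.1, was at 0.181 and 0.303 FPKM in untreated replicates 1 and 2 and at 0.536 and 0.920 FPKM in 5-AZA replicates 101 and 102. Both 5-AZA values were above both untreated values, as they were for 25.6% of the 35557 transcripts tested. Its log2 fold change was 1.26 (SE 0.61, 95% interval from -0.26 to 2.78), and it was not called (adjusted p = 0.401, limma). The log2 fold change was 0.47 with a pseudocount of 1 FPKM and ranged from 0.92 to 1.60 with 1 sample left out. Its share of the Gata4 sum was 8.49% and 14.0% in the untreated and 26.5% and 29.7% in the 5-AZA replicates. The share was not tested, and how often the shares of other transcripts separate by group was not counted. Of all 4 transcripts this one was singled out after its values were seen.

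The predicted transcripts XM_011244957.2 and XM_011244956.2 were lower. XM_011244957.2 was at 0.265 and 0.0335 FPKM in the untreated and at 0.0551 and 0.433 FPKM in the 5-AZA replicates, with a log2 fold change of 0.38 (SE 0.92, limma adjusted p = 0.889). XM_011244956.2 was at 0.251 and 0.0335 FPKM in the untreated and at 0.0498 and 0.193 FPKM in the 5-AZA replicates, with a log2 fold change of -0.047 (SE 0.80, limma adjusted p = 0.988). Each spread more within a group than between the groups. In all, 0 of the 4 Gata4 transcripts was called, against 2.36% of all transcripts tested, and 0 had an unadjusted p under 0.05 (limma), against 16.0% of all. The transcripts called fell from 838 to 0 without 5-AZA replicate 101 and to 0 without 5-AZA replicate 102, with 5536 and 5052 transcripts at an unadjusted p under 0.05 by limma.

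**Figure D2:**
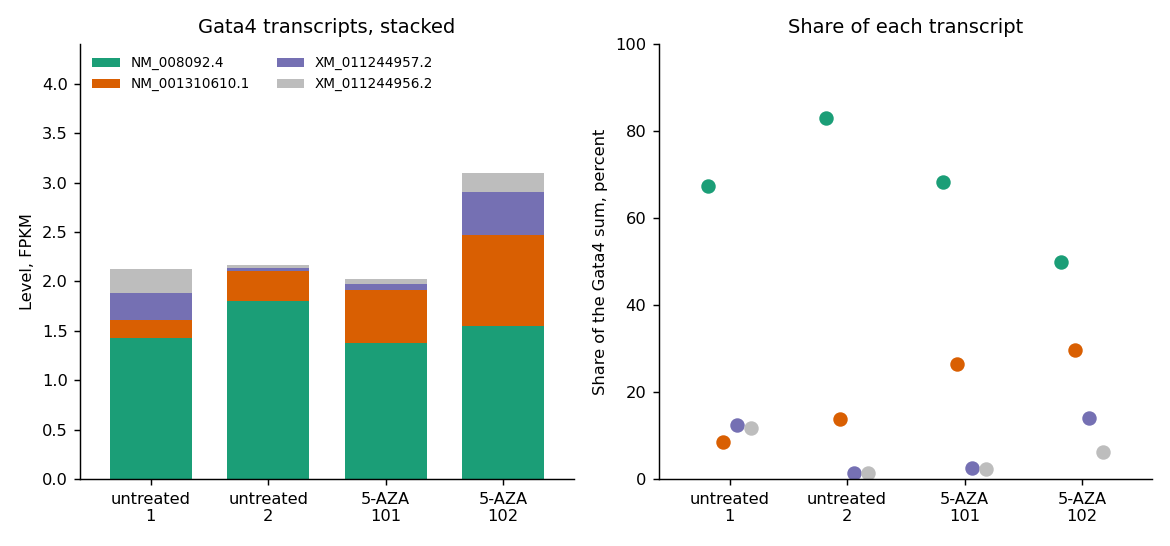
Gata4 transcripts in each sample, stacked as FPKM on the left and as percent of the Gata4 sum on the right. NM_008092.4 holds the largest share in each sample, and NM_001310610.1 holds 8.49% and 14.0% in untreated against 26.5% and 29.7% in 5-AZA samples.

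Gata6, the close relative of Gata4, lay below it in all 4 samples. Its level was 0.850 and 0.633 FPKM in the untreated and 0.531 and 0.707 FPKM in the 5-AZA replicates. The highest value was in untreated replicate 1 and the lowest in 5-AZA replicate 101, with the remaining pair crossing over, so the groups overlapped. The means were 0.741 ± 0.153 FPKM and 0.619 ± 0.124 FPKM (SD, n = 2 each), and the log2 fold change was -0.23 (SE 0.30, 95% interval from -0.91 to 0.45, limma adjusted p = 0.644). Quantile normalization, which forces the samples to a common distribution, changed this to -1.22 with an adjusted p of 0.0146, and Gata6 was then called lower, while its adjusted p ranged from 0.0146 to 0.974 over the alternatives. That scaling moved the median of all genes by -0.17 on the log2 scale and gave 886 lower and 1041 higher genes in place of 174 and 1724, that is 54.0% higher calls in place of 90.8%. Centring on the median moved it by -0.11. Relative to the median of all genes, Gata6 was at -0.27 without further scaling, at -0.27 after centring and at -1.10 after quantile normalization. With only curated transcripts summed, its log2 fold change was 0.055.

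The order of these levels was the same in every sample. The lowest Srf value, 6.62 FPKM, lay above the highest Gata4 value, 3.09 FPKM, and the lowest Gata4 value, 2.02 FPKM, lay above the highest Gata6 value, 0.850 FPKM. Mean Srf was 3.62 times mean Gata4, and mean Gata4 was 3.46 times mean Gata6. All values of the 7 other factors were below 0.1 FPKM, and their order cannot be read at such levels.

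Nkx2-5, an early homeodomain factor of heart progenitors, was listed at 0 and 0.0975 FPKM in the untreated and at 0.0419 and 0 FPKM in the 5-AZA replicates. Each group held a sample at 0, and the groups overlapped. Myocd, the cofactor of Srf, was at 0 and 0.0120 FPKM in the untreated and at 0.0280 and 0.0797 FPKM in the 5-AZA replicates. Its 5-AZA values were the higher ones in each case, but they were under the level tested. Tbx20, a T-box factor of the heart chambers, was at or near 0 in both untreated samples and at 0.0116 and 0.00591 FPKM in the 5-AZA replicates.

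Tbx5, Hand1, Hand2 and Isl1 were listed at 0 in all 4 samples. This held for each of the 8 transcripts of Tbx5 and the 3 of Isl1, and for the single transcripts of Hand1 and Hand2. Among all genes listed, 4368 were at 0 in all samples. Of 80 genes named as ribosomal protein genes, 3 were at 0 in any sample (Rpl10l, Rpl39l and Rpl3l), and these are the tissue-restricted copies. Only 4 of the 80 were under 1 FPKM in any sample, so they do not show how often a gene of low level reads 0. How many reads a value of 0 stands for cannot be told from FPKM.

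The promoter windows used here covered 5 of the 10 factors, Srf, Nkx2-5, Tbx20, Hand2 and Isl1, and those of the others were not analysed here. DNA methylation acts at CpG, and the windows held 25 CpG for Srf, 9 for Nkx2-5, 26 for Tbx20, 17 for Hand2 and 37 for Isl1, against a median of 7 over all windows. Methylation itself was not measured. The GATA motif AGATAA, searched on both strands, was in the windows of Hand2 and Isl1 and in 11.2% of all windows, and the T-box motif AGGTGTGA was in 0 of the 5 and in 1.28% of all. A match is no more than a description of these letters.

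The partners and cofactors of the factors were mostly expressed, and 3 of the 17 tested were called higher, beside 13.1% of all genes tested, 0 lower, and 14 were not called. Of the 3, Smyd1 had an untreated mean under 0.1 FPKM and could be tested only because it was high after 5-AZA. A further gene, Mef2b, was not tested. The median log2 fold change of the 17 was 0.070, beside 0.047 over all genes tested. Smyd1, a muscle methyltransferase needed for heart formation, was at 0.0218 and 0.0957 FPKM in the untreated and at 7.28 and 11.4 FPKM in the 5-AZA replicates. It rose by a log2 fold change of 5.90 (SE 0.33, limma adjusted p = 5.32e-06), which was 3.26 with 1 FPKM added and 7.30 with 0.01 FPKM added. Hopx, a homeodomain protein that restrains Srf, was at 0.340 and 0.534 FPKM and then at 4.42 and 3.17 FPKM, a rise of 2.87 on the log2 scale (SE 0.28, limma adjusted p = 1.29e-04). Mef2c, a MADS box partner of Gata4, was at 6.04 and 5.53 FPKM and then at 13.3 and 15.0 FPKM, a rise of 1.28 on the log2 scale (SE 0.14, limma adjusted p = 1.93e-04), or of 3.33 with only curated transcripts summed. Without 5-AZA replicate 102 the calls of Hopx and Mef2c were lost, with log2 fold changes of 3.10 and 1.19. Without 5-AZA replicate 101 that of Hopx was lost, with a log2 fold change of 2.63.

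The most abundant partners that were not called were Mef2a, Elk4 and Tead1. Mef2a was at 18.6 and 17.6 FPKM in the untreated and at 27.6 and 29.4 FPKM in the 5-AZA replicates, and its adjusted p of 0.00227 (limma) went with a change under 2-fold. Elk4, a ternary complex factor that binds beside Srf, was at 25.0 and 22.8 FPKM and at 22.2 and 21.9 FPKM. Tead1, which binds promoters of muscle genes, was at 18.0 and 16.5 FPKM and at 14.3 and 15.3 FPKM. For both the 5-AZA values were the lower ones, with adjusted p of 0.500 and 0.228 by limma. Nfatc4 was higher, at 6.51 and 5.80 FPKM and then 8.86 and 9.88 FPKM. Its log2 fold change of 0.60 (limma adjusted p = 0.0161) was under 2-fold, and with no filter on low values its adjusted p was 0.0725. Zfpm2, a cofactor of GATA factors, was lower at 6.08 and 6.19 FPKM and then 3.87 and 3.63 FPKM (log2 fold change -0.70, limma adjusted p = 0.0112), and so was Elk1, a relative of Elk4, at 6.21 and 6.13 FPKM and then 3.92 and 4.38 FPKM (log2 fold change -0.56, limma adjusted p = 0.0294), both under 2-fold. With 1 sample left out their adjusted p ranged from 0.0448 to 0.106 for Zfpm2 and from 0.107 to 0.133 for Elk1.

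Relatives of the factors and other early heart regulators gave no call, with 13 of 24 tested, 6 of them at an unadjusted p under 0.05 (limma), beside 35.5% of all genes tested, and a median log2 fold change of 0.28, beside 0.047. Of these 24 genes 6 were listed at 0 in all samples (Gata1, Gata5, Nkx2-3, Nkx2-6, Mesp1 and Tcf21). The most abundant was Foxc1, a forkhead factor of mesenchyme, with 17.5 and 15.7 FPKM in the untreated and 16.2 and 17.4 FPKM in the 5-AZA replicates. Next came Twist1, a basic helix-loop-helix factor like Hand1 and Hand2, with 7.95 and 6.60 FPKM and then 8.20 and 9.55 FPKM. Its relative Twist2 was at 3.17 and 1.83 FPKM and at 3.995 and 5.52 FPKM (log2 fold change 0.93, limma adjusted p = 0.0391), under 2-fold. It was called higher at 1.31 without untreated replicate 1, but stood at 0.55 (adjusted p = 0.176) without untreated replicate 2, and its adjusted p was also over 0.05 without 5-AZA replicate 101 (0.243) or 102 (0.395).

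Among T-box genes, Tbx18 and Tbx15 were at the levels of a few FPKM, unlike Tbx5 and Tbx20. Tbx18 was at 5.38 and 3.54 FPKM in the untreated and at 5.78 and 4.92 FPKM in the 5-AZA replicates, and Tbx15 at 3.89 and 3.68 FPKM and at 4.87 and 5.87 FPKM. Foxc2 was at 3.02 and 2.43 FPKM and at 1.84 and 1.72 FPKM, a log2 fold change of -0.58 that was not called (limma adjusted p = 0.0815). It was called lower, at -1.002, after quantile normalization only, and was at -0.43 (adjusted p = 0.429) without untreated replicate 1. Hey2 had the largest log2 fold change by size of the relatives tested, -1.08, and was not called (limma adjusted p = 0.0689). Its values were 0.265 and 0.409 FPKM in the untreated and 0.116 and 0.0922 FPKM in the 5-AZA replicates. In the Isl family, Isl2 was at 1.04 and 0.859 FPKM and at 0.435 and 0.464 FPKM (log2 fold change -0.93, limma adjusted p = 0.0417), under 2-fold. It was named after its values were seen, as the relative of Isl1 that was measured, and it was called lower at -1.03 after median centring and at -1.92 after quantile normalization. With 1 sample left out its adjusted p ranged from 0.115 to 0.265, and with a pseudocount of 1 FPKM its log2 fold change was -0.42.

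**Figure D3:**
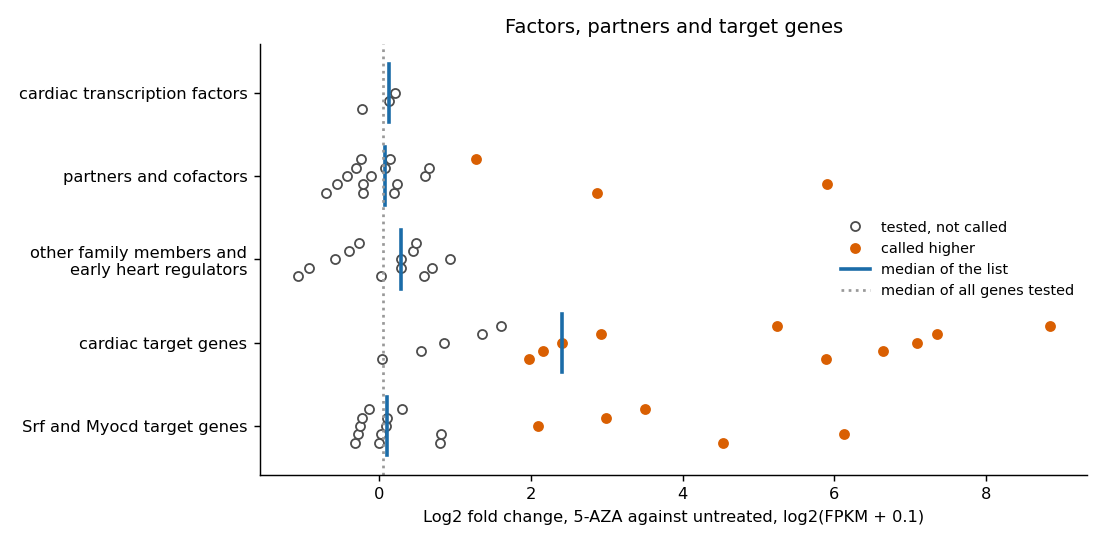
Log2 fold change of each gene tested, by list, on the log2(FPKM + 0.1) scale, with filled points for genes called higher and blue bars for the median of a list. The 3 factors lie near the dotted median of all genes (0.047), and 10 cardiac target genes and 5 targets of Srf and Myocd were called higher.

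Several genes that these factors are known to drive in heart muscle rose. Of 26 cardiac target genes 15 were tested, of which 10 were called higher, beside 13.1% of all genes tested, 0 lower and 5 not called, and 11 were not tested. A gene that was near 0 in untreated cells could be tested only if it was high after 5-AZA, which held for 6 of the 15 and 4 of the 10 by an untreated mean under 0.1 FPKM (1069 of all genes tested, 825 of them called higher), so neither the share called among the tested nor the median of their fold changes can be read by itself. Of the 26 genes 7 were listed at 0 in all samples (Nppa, Nppb, Myl3, Myl7, Kcnj3, Hcn4 and Bmp10), among them the natriuretic peptides and the light chain of atrial muscle.

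Actc1, the cardiac actin, had the largest log2 fold change of the list with 0.1 FPKM added, whereas with 1 FPKM added that of Myl4 (6.63) exceeded it (6.14). It was at 0.0515 and 0.0728 FPKM in the untreated and at 61.6 and 89.2 FPKM in the 5-AZA replicates, a rise of 8.84 on the log2 scale (SE 0.22, limma adjusted p = 1.66e-07). Myl4, an embryonic and atrial light chain, was at 1.32 and 1.19 FPKM and then at 185 and 267 FPKM, a rise of 7.36 (SE 0.17), or of 3.59 with only curated transcripts summed. Ankrd1, an ankyrin repeat protein of the sarcomere and nucleus, went from 0.157 and 0.125 FPKM to 28.0 and 38.0 FPKM, a rise of 7.09 (SE 0.22). These genes are also made in developing or slow skeletal muscle, as are those that follow. Tnnc1, troponin C, was at 2.79 and 0.882 FPKM and then at 142 and 197 FPKM, a rise of 6.64 (SE 0.41). Tnnt2, cardiac troponin T, was at 0.385 and 0.618 FPKM and then at 28.3 and 43.1 FPKM, a rise of 5.89 (SE 0.26). Myh7, the slow myosin heavy chain, was at 0.0141 and 0.00980 FPKM and then at 3.12 and 5.44 FPKM, a rise of 5.24 (SE 0.34), which was 2.35 with 1 FPKM added and 7.56 with 0.01 FPKM added. These 6 were named by size of change among called genes with groups that do not overlap, and their adjusted p from limma was at most 1.05e-05. Without 5-AZA replicate 101 or 102 Tnnc1 was no longer called, with log2 fold changes of 6.87 and 6.40.

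**Figure D4:**
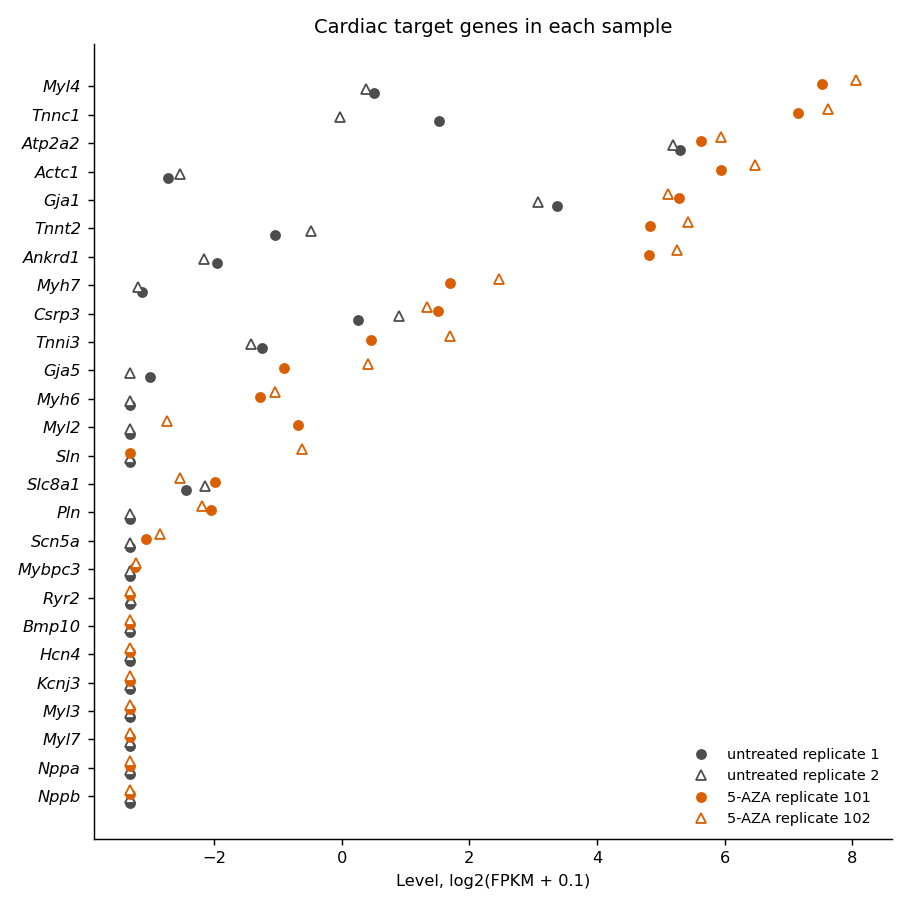
Level of each of the 26 cardiac target genes in each sample on the log2(FPKM + 0.1) scale, with grey symbols for untreated and orange for 5-AZA samples. Myl4, Tnnc1, Actc1, Tnnt2 and Ankrd1 lie far to the right in the 5-AZA samples, whereas 7 genes sit at 0 FPKM in all 4 samples.

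Of 18 genes known as targets of Srf and Myocd, 17 were tested, 5 were called higher, beside 13.1% of all genes tested, 0 lower and 12 not called, and 1, Myh11, was not tested. Of the 5, Cnn1 and Synpo2 had untreated means under 0.1 FPKM and could be tested only because they were high after 5-AZA. Des, the intermediate filament of muscle, was at 0.335 and 0.162 FPKM in the untreated and at 18.1 and 30.2 FPKM in the 5-AZA replicates, a rise of 6.12 on the log2 scale (SE 0.31, limma adjusted p = 3.27e-06). Tagln, an actin-binding protein of smooth muscle, was at 0.530 and 0.321 FPKM and then at 10.3 and 13.5 FPKM, a rise of 4.53 (SE 0.26, limma adjusted p = 5.47e-06). Cnn1, a calponin, was at 0 and 0.0212 FPKM and then at 1.23 and 1.07 FPKM (log2 fold change 3.50, limma adjusted p = 1.13e-04, or 1.09 with 1 FPKM added and 6.04 with 0.01 FPKM added). Synpo2, an actin-bundling protein of the Z disc, was at 0.0967 and 0.0706 FPKM and then at 1.09 and 1.68 FPKM (log2 fold change 2.99, limma adjusted p = 2.71e-04, or 1.13 with 1 FPKM added and 3.88 with 0.01 FPKM added). Actg2, the enteric smooth muscle actin, was at 2.63 and 2.39 FPKM and then at 8.27 and 14.5 FPKM (log2 fold change 2.09, limma adjusted p = 3.78e-04), and it was not called without 5-AZA replicate 102 (adjusted p = 0.0534) or with no filter on low values (adjusted p = 0.0680).

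The most abundant targets were not called, and the signs of their log2 fold changes differed. Actb, cytoplasmic actin, was at 1552 and 1426 FPKM in the untreated and at 1217 and 1328 FPKM in the 5-AZA replicates (log2 fold change -0.23, SE 0.12, limma adjusted p = 0.208). The 5-AZA values were the lower ones for Actb. Tpm1, a tropomyosin, was at 281 and 288 FPKM and then at 445 and 552 FPKM (log2 fold change 0.80, SE 0.12, limma adjusted p = 0.00151), a rise under 2-fold. With no filter on low values the limma adjusted p of Tpm1 was 0.0729. Acta2, the vascular smooth muscle actin, was at 185 and 191 FPKM and then at 196 and 273 FPKM (log2 fold change 0.30, SE 0.15, limma adjusted p = 0.193). Over all 18 targets the summed FPKM was 3614 and 3339 in the untreated and 3140 and 3561 in the 5-AZA replicates, so the groups overlapped, but Actb and Actg1 made up between 60.5% and 71.3% of it in each sample. The sum of the other targets was 1038 and 1007 FPKM and then 1163 and 1408 FPKM. Of this sum Tpm1 alone held 281 and 288 FPKM and then 445 and 552 FPKM.

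CArG boxes were looked for in the promoter windows of the listed genes after their values were seen. They stood in 3 of the 27 windows of cardiac target genes (Actc1, Myl3 and Myl7), in 2 of the 13 of Srf and Myocd targets (Actg1 and Vcl), in 1 of 20 of partners (Hopx), in 1 of 19 of relatives (Mesp1) and in 1 of 8 of skeletal muscle markers (Acta1), beside 1.63% of all windows. They stood in 0 windows of the smooth muscle (4 windows), mesenchymal (4), adipocyte (7), visceral endoderm and liver (8), gonadal (2), endothelial (2) and immune cell (4) markers. Windows covered 12 of the 18 Srf and Myocd targets and 4 of the 7 smooth muscle markers. Looser forms of the box, and boxes outside the windows, were not looked for. Acta1 was called higher. Stretches of 6 genes are shown because the levels beside them differ widely, with 20 bases on each side of the box, which is in capitals, on the strand of the gene (GRCm38.p6). They lie at chr2:114052893-114052942 on the minus strand for Actc1, chr5:77115177-77115226 on the minus strand for Hopx, chr11:5898814-5898863 on the minus strand for Myl7, chr9:110763573-110763622 on the plus strand for Myl3, chr14:20929151-20929200 on the plus strand for Vcl and chr11:120348556-120348605 on the minus strand for Actg1.
Actc1: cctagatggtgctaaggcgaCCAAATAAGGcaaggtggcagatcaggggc
Hopx: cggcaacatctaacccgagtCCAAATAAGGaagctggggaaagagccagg
Myl7: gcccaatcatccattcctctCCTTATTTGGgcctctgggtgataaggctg
Myl3: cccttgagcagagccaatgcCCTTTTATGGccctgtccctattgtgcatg
Vcl: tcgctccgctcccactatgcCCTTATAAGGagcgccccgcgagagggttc
Actg1: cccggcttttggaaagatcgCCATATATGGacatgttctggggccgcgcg
Actc1 and Hopx were called higher, Myl7 and Myl3 were listed at 0 in all samples, and Vcl and Actg1 were abundant and not called. Vcl, vinculin of focal adhesions, was at 160 and 149 FPKM in the untreated and at 135 and 144 FPKM in the 5-AZA replicates. Actg1, the other cytoplasmic actin, was at 1025 and 906 FPKM and at 759 and 825 FPKM.

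The genes that the study had followed by PCR include Gata4, Nkx2-5, Tnnt2, Mef2c and Des, given above, and Myod1, Myog and Myh6. Myod1, the skeletal muscle determination factor, was listed at 0 in both untreated samples and at 0.512 and 1.23 FPKM in the 5-AZA replicates, and was called higher (limma adjusted p = 9.44e-04). Myog, which acts after it, was at 0.0806 and 0.101 FPKM and then at 33.0 and 52.4 FPKM, a rise of 7.77 on the log2 scale (SE 0.25, limma adjusted p = 3.13e-07). Myh6, the fast heavy chain of heart muscle, was at 0 or within rounding of 0 in the untreated samples and at 0.309 and 0.385 FPKM after 5-AZA, and was called higher (limma adjusted p = 0.00389). Myod1, Myog and Myh6 had untreated means under 0.1 FPKM and could be tested only because they were high after 5-AZA. With a pseudocount of 1 FPKM neither Myod1 nor Myh6 was called, and neither was Myod1 with no filter on low values (adjusted p = 0.0584) nor Myh6 after quantile normalization (adjusted p = 0.0709). By PCR the study reports a rise of Gata4, Tnnt2, Myod1 and Des. For the other genes it followed, it reports a fall or no change. By FPKM Tnnt2, Myod1 and Des were called higher, and so were Mef2c, Myog and Myh6. Gata4 was not called (log2 fold change 0.21, limma adjusted p = 0.584), with an interval up to 1.69-fold. Nkx2-5 was not tested. The outcomes by PCR and by sequencing thus differed for Gata4, Mef2c, Myog and Myh6, and the reason was not tested.

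Markers of several cell types moved in the same comparison. The counts called among them stand beside 13.1% of all genes tested, and markers near 0 in untreated cells, such as Myh6, Nr5a1 and Cdh5, could be tested only because they were high after 5-AZA. Of 10 cardiomyocyte markers, all of them also cardiac target genes, 3 were tested and 2 were called higher (Tnni3 and Myh6), and their summed FPKM was 0.321 and 0.274 in the untreated and 2.24 and 3.68 in the 5-AZA replicates, with Tnni3 the most abundant. Tnni3 was not called without 5-AZA replicate 102 (adjusted p = 0.0585) or with no filter on low values (adjusted p = 0.106). Nppa, Nppb, Myl7 and Kcnj3 were at 0. Skeletal muscle markers were called higher in 10 of 10 tested out of 12 (6 of the 10 had an untreated mean under 0.1 FPKM), with summed FPKM of 1.53 and 1.35 against 815 and 1246, Mylpf the most abundant, and Myf5 and Pax7 at 0. Since the samples are bulk RNA, more cells of a type and more RNA per cell cannot be told apart. The part of skeletal muscle cells in the rise of the cardiac target genes was not tested.

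Smooth muscle markers were called higher in 3 of 6 tested out of 7, beside the 13.1% of all genes, with sums of 199 and 203 FPKM in the untreated and 226 and 315 FPKM in the 5-AZA replicates, led by Acta2. Adipocyte markers were called higher in 4 of 5 tested, with sums of 42.6 and 27.8 FPKM and then 1030.3 and 1415 FPKM, led by Fabp4 after 5-AZA, which was not called without 5-AZA replicate 101 (adjusted p = 0.0663) or 102 (adjusted p = 0.0710). All 8 mesenchymal markers of the labelled cell type were measured, with sums of 3238.5 and 3297 FPKM and then 2084 and 2332 FPKM, led by Vim. The sum followed Vim, Col1a1 and Col1a2, which were lower, whereas Thy1, Ly6a, Pdgfra, Pdgfrb and Eng were higher, and the median log2 fold change was 0.52. Of the 8, 1 was called, Thy1, which was higher. Of other cells in which Gata4 and Gata6 are known, 0 of 7 visceral endoderm and liver markers were tested, with a highest sum of 0.185 FPKM, and with Ttr, Sox17, Foxa2 and Apoa1 at 0. Gonadal somatic markers were called higher in 1 of 3 tested out of 6 (Nr5a1), with sums of 0.950 and 1.80 FPKM and then 2.52 and 2.95 FPKM, led by Inha in the untreated and by Nr5a1 in the 5-AZA samples, and Fshr was at 0. Endothelial markers were called higher in 2 of 4 tested out of 5 (Cdh5 and Tek), with sums of 0.662 and 0.456 FPKM and then 1.88 and 1.90 FPKM, led by Tek, with Kdr at 0. Immune cell markers were called higher in 1 of 1 tested out of 4 (Cd68), with sums of 1.16 and 1.47 FPKM and then 2.33 and 3.69 FPKM, led by Cd68, and Adgre1 and Cd3e were at 0.

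Noncoding RNAs at these genes were looked up too. Of 4295 circRNAs, 0 had one of the 10 factors as host gene. Within 5 kb of the factors lay 55 lncRNAs, 16 of them at Hand2, 10 at Myocd and 9 at Tbx5, and 43 of the 55 were listed at 0 in all samples (78.2%, beside 51.0% of all lncRNAs). Many of these lncRNAs overlap one another at the same factor, so they do not count as independent RNAs. The submitters' notes list the build mm9, but all 2356 host transcripts of the circRNA table that were compared overlapped the GRCm38 position of their gene, as did all 125 lncRNAs that could be compared, so that the positions were read as GRCm38. The single lncRNA tested was NONMMUT021227.2, an RNA of 1 exon within Gata4 at chr14:63241971-63245259 on the minus strand. It was at 0.394 and 0.334 FPKM in the untreated and at 0.252 and 0.133 FPKM in the 5-AZA replicates. Both 5-AZA values were the lower ones, and the log2 fold change of -0.69 (SE 0.42, limma adjusted p = 0.556) was not called, against 1.14% of 24075 lncRNAs called. Reads of unspliced Gata4 RNA in that stretch cannot be told apart from it.

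The genes whose levels lay closest to Gata4 over the 4 samples, by Euclidean distance on the log2(FPKM + 0.1) scale, were Vps37d (0.12), Foxo1 (0.15), B4galnt1 (0.23), Fadd (0.23) and Nckipsd (0.24). Foxo1, a forkhead factor, was at 2.28 and 2.14 FPKM in the untreated and at 2.15 and 3.30 FPKM in the 5-AZA replicates, with 5-AZA replicate 102 the highest, as for Gata4. Closest to Srf were 2410004B18Rik (0.14), Trim56 (0.18), Amot (0.19), Taf15 (0.20) and Erlin1 (0.20). Trim56 was at 9.51 and 6.79 FPKM and at 8.10 and 10.2 FPKM, with untreated replicate 2 the lowest, as for Srf. Likeness over 4 samples describes level as much as pattern.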

How the data were processed

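RNA of 2 untreated and 2 5-AZA samples was compared. The submitters' processing notes name Trimmomatic, HISAT2, Bowtie2 2.2.9 and eXpress 1.5.1, and the authors deposited FPKM values per transcript for mRNAs and lncRNAs and RPM values for circRNAs. The circRNA values were used for counts of host genes only. The study names a count test, for which FPKM hold no counts. FPKM of all transcripts of a gene were summed, 0.1 was added and log2 values were fitted by the lmFit and trended eBayes functions of limma 3.58.1 (R 4.3.3), over all genes with a mean of at least 0.1 FPKM, with no covariate. p-values were adjusted by the Benjamini-Hochberg approach over all features tested. Fold changes on the log2(FPKM + 0.1) scale understate changes of low genes. Single transcripts and lncRNAs were fitted likewise, the lncRNAs by a choice made after seeing the data. An exact two-sided permutation test of 2 samples against 2 cannot go below 0.333.

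The members and lists were chosen with earlier results of these data known. Named are all 10 factors, each Gata4 transcript, the genes the study followed by PCR, the 5 nearest genes of each factor with a mean of at least 1 FPKM, and up to 6 genes of each of 4 lists (partners and cofactors, relatives and early heart regulators, cardiac target genes, Srf and Myocd targets). These 6 were called genes by size of change, with groups that do not overlap and at least 1 FPKM in the higher group, then genes not called by mean level. Markers of cardiomyocytes, skeletal muscle, smooth muscle, mesenchymal cells, adipocytes, visceral endoderm and liver, gonadal somatic cells, endothelium and immune cells were given as counts and sums, and a further immune cell marker is not reported here. Other names were chosen after their values were seen. Promoter windows came from RefSeq (GRCm38.p6). Alternatives were other pseudocounts (0.01 and 1 FPKM), other limits on low values (no filter and a mean of 1 FPKM), median centring, quantile normalization, eBayes without trend, curated transcripts only, and leaving out 1 sample at a time.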

Additional observations from a re-analysis of the deposited data

How the results depend on the processing

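Under the alternatives, 0 of the 10 factors was called in each setting except quantile normalization, which called 1 (Gata6, -1.22 on the log2 scale). The genes called, 1898, fell to 961 with a pseudocount of 1 FPKM, to 1262 with no filter on low values and to 967 with a filter at a mean of 1 FPKM, and ranged from 803 to 1801 with 1 sample left out. The 838 transcripts called fell to 0 with no filter, where 8254 had an unadjusted p under 0.05 by limma, and ranged from 0 to 177 with 1 sample left out. Targets of Srf and Myocd called higher fell from 5 to 3 with the filter at 1 FPKM. Cnn1 and Synpo2, with means of 0.581 and 0.734 FPKM, were not tested under it. Cardiac target genes called higher, 10 in the main fit, numbered 8 with that filter, under which Myh6 and Gja5 were not tested. With a pseudocount of 1 FPKM they also numbered 8, and Myh6 and Gja5 lost their calls. They numbered 9 with no filter, after quantile normalization or with curated transcripts only, and 11 with a pseudocount of 0.01 FPKM. With 1 sample left out, partners called higher ranged from 1 to 3 and relatives of the factors from 0 to 1. A lone sample of a group was then assumed to vary like the other group.

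Log2 fold changes that turned their sign belonged to genes and transcripts without a call. Quantile normalization gave -0.11 for Gata4, -0.037 for Foxc1 and -0.026 for Gata2, and median centring -0.088 for Foxc1. Curated transcripts alone gave 0.055 for Gata6, -0.038 for Srf and 0.14 for Elk4, and a pseudocount of 0.01 FPKM gave 0.048 for XM_011244956.2. With 1 sample left out the log2 fold changes ranged from -0.084 to 0.51 for Gata4, from -0.15 to 0.41 for Srf, from -0.28 to 0.027 for NM_008092.4, from -0.51 to 1.27 for XM_011244957.2 and from -0.74 to 0.44 for XM_011244956.2. For Foxc1 they ranged from -0.060 to 0.097 and for Tbx18 from -0.013 to 0.58. Sizes of change for genes near 0 in untreated cells were set by the pseudocount, as for Myog with 5.29 at 1 FPKM and 8.70 at 0.01 FPKM. Of the log2 fold changes refitted under the alternatives, 565 kept sign and call, 17 turned their sign, 5 gained a call and 19 lost one. The causes were not tested. Gata6 had no value with the filter at 1 FPKM, nor had the low Gata4 transcripts. Alternatives for the lists, for other named genes and for the lncRNA were chosen after seeing the data. FPKM hold no depth, so how low a level could have been seen is unknown, and 2 samples a group limit each result.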
